A study of Arabidopsis thaliana with 12 samples.

Results

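The genes LHY, CCA1 and CHE were followed in leaves of Arabidopsis thaliana. Their array features were chosen by locus, as every probe whose transcript name starts with AT1G01060 (LHY, chromosome 1), AT2G46830 (CCA1, chromosome 2) or AT5G08330 (CHE, chromosome 5). This gave 9 of the 15013 probes on the array and 3 of its 5154 transcript names. Each gene had 3 probes under a single transcript name: AT1G01060.2 for LHY, AT2G46830.1 for CCA1 and AT5G08330.1 for CHE. In the TAIR10.1 gene table RefSeq lists 8 transcripts for LHY, 3 for CCA1 and 1 for CHE, and the CHE locus carries the symbol TCP11, with CHE and TCP21 as synonyms. No source used here says which of these transcripts a given probe detects, so the courses below are those of single probes and not of isoforms.

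The samples were 12 RNA extracts from leaves of Col-0, the reference wild type, each labelled with Cy3 and hybridised to its own array. Plants were 30 days old and were kept at 22 °C and 65% humidity under 145 µmol of light per m2 per s, with 8 h of light and 16 h of dark in a day. According to the titles, 2 replicates were taken in the light at each of 0, 4 and 8 h, and 2 in the dark at each of 12, 16 and 20 h, which makes 6 time points. No other genotype or treatment was included. The series title speaks of continuous light, whereas the sample titles and the growth protocol describe light and dark, and the hours are used here as the titles give them. Nothing states whether 2 replicates came from separate plants, so the p-values measure the spread between these extracts, which may be technical. In RNA from whole leaves, fewer cells of a type and less RNA per cell cannot be told apart.

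LHY and CCA1 encode closely related MYB-type transcription factors of the plant circadian clock. They accumulate around dawn and repress genes that peak later in the day and in the evening, among them TOC1, while the pseudo-response regulators PRR9, PRR7, PRR5 and TOC1 in turn repress CCA1 and LHY. CHE is a transcription factor of the TCP class that binds the CCA1 promoter and represses it. The sample titles do not say how 0 h relates to the start of the light. In these samples the highest means of LHY and CCA1 were at 8 h, not separated from those of 4 h, and not at 0 h.

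The number of probes well above background per array ran from 3983 to 7832, the highest being that of the second dark 16 h array. All 9 probes of the 3 genes were well above background on all 12 arrays, and none was saturated or marked as an outlier, so all 9 passed the filter on dim probes and each of their fold changes is measured on both sides. The probes of the listed clock genes named below were also well above background on all 12 arrays. The 4 arrays of 0 and 4 h shared slide 1, and the other 8 arrays, from 8 h to 20 h, shared slide 2. The step from 4 to 8 h, and any difference between 0 or 4 h and the later time points, cannot be told apart from the change of slide. None of the 9 leaf, 4 root and 3 flower marker genes listed for a check of the tissue was on the array, so the leaf label could not be checked against markers.

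LHY was high at 4 and 8 h, intermediate at 0 and 12 h and low at 16 and 20 h. Levels are log2 signals scaled to each array's 75th percentile, so that 1 unit is a doubling and a level is comparable between arrays for a given probe but not between probes. LHY probe 1, the brightest of its 3 probes, stood at 4.20 and 3.98 on the arrays of 0 h, at 8.01 and 8.01 at 4 h, and at 8.29 and 8.13 at 8 h. It then stood at 4.73 and 4.98 at 12 h, at 0.69 and 0.72 at 16 h, and at 0.22 and 0.00 at 20 h. Arrays of the same time point lay within 0.25 of each other, and no array of 4 or 8 h overlapped with any array of another time point. The mean at 8 h was 8.10 ± 0.18 (SE of the difference) above the mean at 20 h, a 274-fold difference. LHY probes 2 and 3 gave the same shape at lower signal, with differences of 7.80 ± 0.15 (223-fold) and 8.01 ± 0.16 (258-fold) between 8 and 20 h. LHY probe 2 was at 7.34 and 7.35 at 8 h and at -0.50 and -0.40 at 20 h, and LHY probe 3 at 6.20 and 6.08 and then at -1.86 and -1.88.

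CCA1 was also high at 4 and 8 h, but it was close to its lowest levels at 0 h and still elevated at 12 h. CCA1 probe 1 stood at 0.74 and 0.95 at 0 h, at 6.52 and 6.43 at 4 h, and at 6.55 and 6.54 at 8 h. It then stood at 4.99 and 4.50 at 12 h, at 0.36 and 0.32 at 16 h, and at -0.76 and -0.70 at 20 h. The 12 h pair differed by 0.50, the widest gap among the CCA1 probes, and neither of these arrays overlapped with those of 0, 4, 8, 16 or 20 h. The 8 h mean exceeded the 20 h mean by 7.27 ± 0.20 (155-fold) for CCA1 probe 1, by 7.15 ± 0.16 (142-fold) for CCA1 probe 2 and by 7.25 ± 0.17 (152-fold) for CCA1 probe 3. CCA1 probe 2 was at 6.23 and 6.26 at 8 h and at -0.99 and -0.84 at 20 h, and CCA1 probe 3 at 5.89 and 5.66 and then at -1.53 and -1.42.

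**Figure D1:**
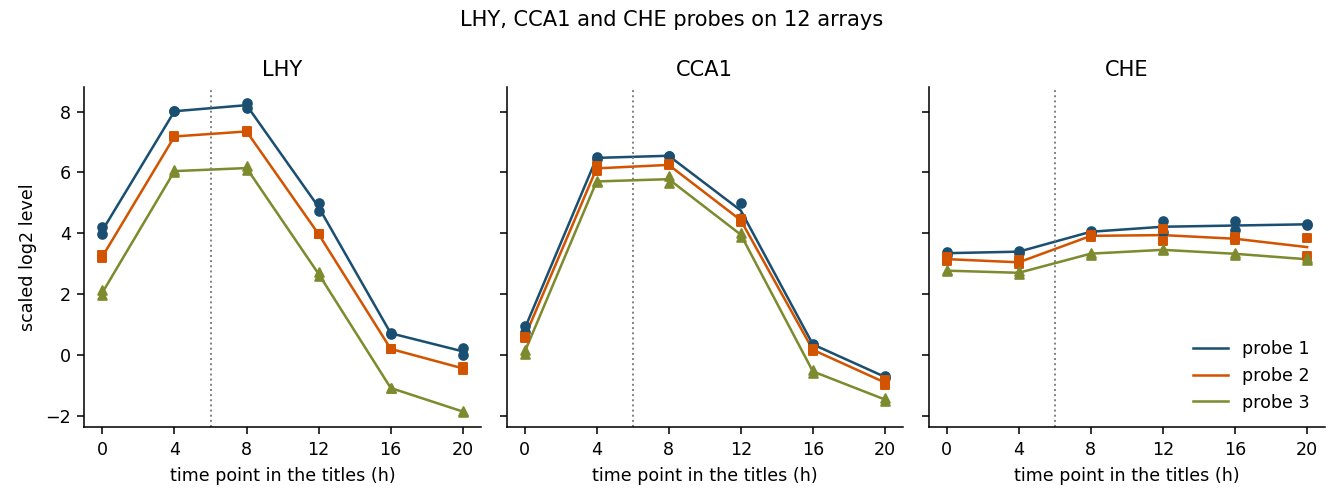
Scaled log2 level of each LHY, CCA1 and CHE probe (vertical axis) at the 6 time points in hours (horizontal axis). Points are single arrays, lines join the means of 2 arrays, and the dotted line separates slide 1 (0 and 4 h) from slide 2. From 8 to 20 h LHY and CCA1 fall by over 7 units on all their probes, while the points of the CHE probes lie between 3.11 and 4.41.

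Among the 6214 probes tested, few had a wider range of time point means than LHY and CCA1. Only 1 probe exceeded LHY probe 1, 5 exceeded LHY probe 2 and 3 exceeded LHY probe 3, and 9 to 11 exceeded the CCA1 probes. The probe above LHY probe 1, with a range of 8.91, was that of the transcript AT5TU002520, not well above background on slide 1. With its dim arrays raised to the lowest signal well above background, its range was at least 6.96. The counts for LHY probes 2 and 3 and for the CCA1 probes include other LHY probes. The median range of all tested probes was 1.37. By the F test over the 6 time points (limma, Benjamini-Hochberg adjusted over all 6214 probes), all 3 LHY probes passed the threshold of 0.05 with an adjusted p of 4.1e-07, and all 3 CCA1 probes with adjusted p between 4.1e-07 and 9.3e-07. With 2 of the 3 CHE probes, 8 of the 9 probes passed, where 21.5% of all tested probes did. On the 8 arrays of slide 2 alone, all 6 LHY and CCA1 probes passed as well (adjusted p 0.00019 to 0.00025), where 8.58% of tested probes did.

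Over the first step both genes rose, CCA1 by more than LHY. From 0 to 4 h CCA1 probe 1 rose by 5.63 ± 0.20 (49.6-fold) and LHY probe 1 by 3.92 ± 0.18 (15.1-fold), with adjusted p of 8.8e-06 and 3.2e-05 (limma). All 6 LHY and CCA1 probes rose in this step, against 1.69% of tested probes that changed in either direction. These 4 arrays share slide 1, and fitted alone they still gave adjusted p between 0.013 and 0.026 for the 6 probes, with 0.113% of tested probes passing.

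Between 4 and 8 h no LHY or CCA1 probe passed the threshold. The 8 h mean was 0.20 ± 0.18 above the 4 h mean for LHY probe 1 (adjusted p = 0.67, limma) and 0.07 ± 0.20 above it for CCA1 probe 1 (adjusted p = 0.91), and 2.38% of all tested probes passed in this step. Which of the 2 time points was the higher depended on the scaling. Over 7 ways of scaling the arrays and 3 probes each, 8 h was the highest time point in 15 of 21 cases for LHY and in 16 of 21 for CCA1, and 4 h in the other cases. The difference ran from -0.29 to 0.40 for LHY and from -0.32 to 0.35 for CCA1. In 1 of these cases the step passed, with 0.35 for CCA1 probe 3 under normexp and quantile normalization (adjusted p = 0.023).

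LHY fell further than CCA1 in the first step after 8 h. This difference between the genes was not tested for that step alone, as the within-array test below covers all 6 time points. From 8 to 12 h LHY probe 1 fell by 3.36 ± 0.18 on the log2 scale (10.3-fold; adjusted p = 7.8e-05, limma) and CCA1 probe 1 by 1.80 ± 0.20 (3.49-fold; adjusted p = 0.0027). All 6 probes of both genes fell, where 6.0% of tested probes changed. From 12 to 16 h LHY probe 1 fell by 4.15 ± 0.18 (17.7-fold; adjusted p = 1.4e-05) and CCA1 probe 1 fell by 4.40 ± 0.20 (21.2-fold; adjusted p = 1.8e-05). Again all 6 probes passed, among 13.4% of tested probes.

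Between the last samplings in the dark, at 16 and 20 h, the levels edged down with the scaling to the 75th percentile used throughout. From 16 to 20 h CCA1 probe 1 fell by 1.07 ± 0.20 (2.1-fold; adjusted p = 0.014, limma), and CCA1 probes 2 and 3 by 1.07 and 0.92. LHY probes 2 and 3 fell by 0.65 and 0.78 (adjusted p 0.029 and 0.020), while LHY probe 1 was 0.59 ± 0.18 lower without passing (adjusted p = 0.064). Thus 5 of the 6 probes passed, where 15.3% of tested probes did. This step depended on the scaling for both genes. Over the 7 scalings it passed in 8 of 21 cases for LHY and in 16 of 21 for CCA1. No LHY probe passed with median scaling, quantile normalization, the authors' deposited table or the percentile over all probes. With that last scaling no CCA1 probe passed either, and the changes were -0.10, -0.10 and 0.05 for CCA1 probes 1 to 3 and 0.38, 0.32 and 0.19 for LHY. With median scaling only CCA1 probe 2 passed (adjusted p = 0.040, limma). The lowest time point was 20 h in 18 of 21 cases for LHY and in 20 of 21 for CCA1, and 16 h in the others.

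Set against 20 h, the 0 h arrays showed LHY already well up. LHY probe 1 was 3.98 ± 0.18 higher at 0 h than at 20 h (15.8-fold; adjusted p = 2.8e-05, limma), and LHY probes 2 and 3 were 3.68 and 3.92 higher. CCA1 probe 1 was 1.57 ± 0.20 higher (2.97-fold; adjusted p = 0.0057), and CCA1 probes 2 and 3 were 1.48 and 1.55 higher. All 6 probes passed, among 5.0% of tested probes, and the 2 time points lie on different slides. The labels do not say whether the 0 h samples were collected before or after those of 20 h.

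The order of the time point means was 8, 4, 12, 0, 16 and 20 h for all 6 LHY and CCA1 probes. For LHY, 8 and 4 h did not pass in any of the probes, and 12 h exceeded 0 h by 0.76 ± 0.18 on LHY probe 1 (adjusted p = 0.039, limma) and by an amount that did not pass on LHY probe 3 (adjusted p = 0.058). Between 0 and 12 h, 2 LHY probes and all 3 CCA1 probes were higher at 12 h, where 9.4% of tested probes changed, and CCA1 probe 1 was 14.9-fold higher. For CCA1 the neighbours that did not pass were 8 and 4 h, and 0 and 16 h. The CCA1 arrays of 0 and 16 h did not overlap on any of the 3 probes, and the 16 h means were lower by 0.50 ± 0.20, 0.41 ± 0.16 and 0.63 ± 0.17, with adjusted p of 0.14, 0.13 and 0.052. In the same pair all 3 LHY probes fell, LHY probe 1 by 3.39 ± 0.18; 12.0% of tested probes passed in that pair.

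The remaining pairs of time points set a high against a low or middle level. All 6 LHY and CCA1 probes passed in each of them, in the direction that the order gives. The tested probes that passed were 2.86% for 8 against 0 h, 9.96% for 12 against 4 h, 18.1% for 16 against 4 h and 7.52% for 20 against 4 h. They were 13.6% for 16 against 8 h, 7.27% for 20 against 8 h and 15.2% for 20 against 12 h. Over all 15 pairs, the LHY probes passed in 40 of 45 cases, the CCA1 probes in 39 of 45 and the CHE probes in 9 of 45.

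The percentages of the highest mean show how the 2 genes parted at 0 h and at 12 h. At 0 h LHY probe 1 was at 5.74% of its 8 h signal and CCA1 probe 1 at 1.92%. At 12 h the order was the other way round, with LHY probe 1 at 9.74% and CCA1 probe 1 at 28.7%. At 20 h they stood at 0.364% and 0.646%.

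**Figure D2:**
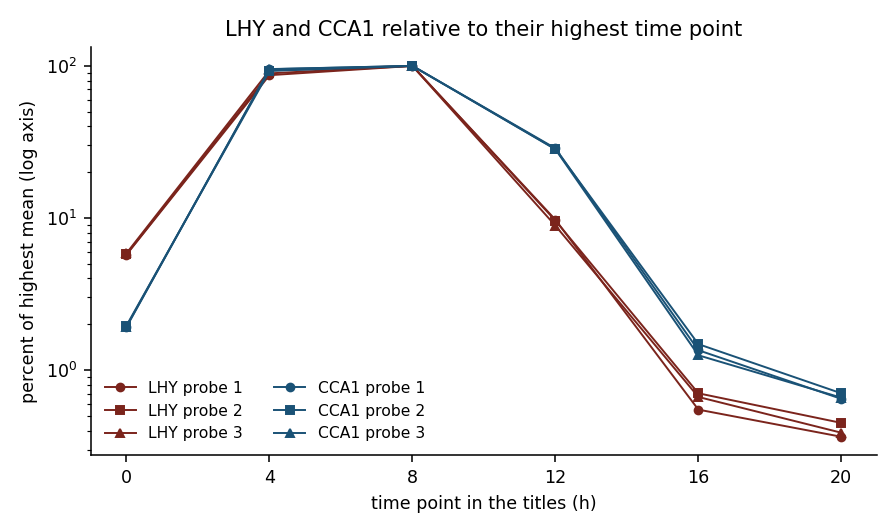
Mean signal of each LHY and CCA1 probe as a percentage of its highest time point (vertical log axis) at the 6 time points in hours. The 3 LHY probes lie above the 3 CCA1 probes at 0 h and below them at 12, 16 and 20 h.

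A cosine of 24 h period described LHY closely and CCA1 less so. All 6 probes passed the cosine test (limma; adjusted p 6.9e-10 for each LHY probe and 3.9e-06 for each CCA1 probe), whereas none of the CHE probes did, so 6 of 9 passed where 6.53% of tested probes did. The fitted peak was at 6.3 h for LHY, with peak-to-trough amplitudes of 8.93, 8.57 and 8.77 on probes 1 to 3, and at 7.4 h for CCA1, with 8.30, 8.14 and 8.32. The LHY means departed from the curve by at most 0.23. The CCA1 means departed by up to 0.83, lying above the curve at 4 h by 0.83 and below it at 0 and 8 h by 0.70 and 0.59 for CCA1 probe 1, that is, rising more abruptly than the cosine. With the slide as a block the peaks moved to between 6.5 and 6.6 h for LHY and between 7.5 and 7.6 h for CCA1. Joining the means by straight lines, the LHY probes crossed the middle of their range at 0.1 to 0.2 h on the way up and at 12.6 to 12.7 h on the way down, and the CCA1 probes at 1.5 h and at 13.6 to 13.7 h. With samples 4 h apart these times are read off between points and carry no error of their own.

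Whether LHY and CCA1 shared one course was tested on the difference between them within each array, from which the scaling between arrays drops out. Since levels of different probes are not comparable, only the change of this difference over time can be read. LHY probe 1 minus CCA1 probe 1 was 3.46 and 3.03 at 0 h, 1.49 and 1.58 at 4 h, and 1.74 and 1.59 at 8 h. It was -0.26 and 0.48 at 12 h, 0.32 and 0.40 at 16 h, and 0.97 and 0.70 at 20 h. The 0 h arrays were above all others, and those of 4 and 8 h lay above those of 12, 16 and 20 h. The means ranged over 3.14, from 3.25 ± 0.31 (SD, n = 2) at 0 h to 0.11 ± 0.53 (SD, n = 2) at 12 h, and the difference changed with time by an exact permutation test over the groupings of 12 arrays into 6 pairs (adjusted p = 0.00067 over 3 gene pairs). In all 9 combinations of an LHY with a CCA1 probe the 0 h mean was the highest and the 12 h mean the lowest, with ranges from 3.09 to 3.30 and adjusted p from 0.00035 to 0.00067 (exact permutation test). On slide 2 alone it ranged over 1.56 (exact permutation test, adjusted p = 0.029).

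**Figure D3:**
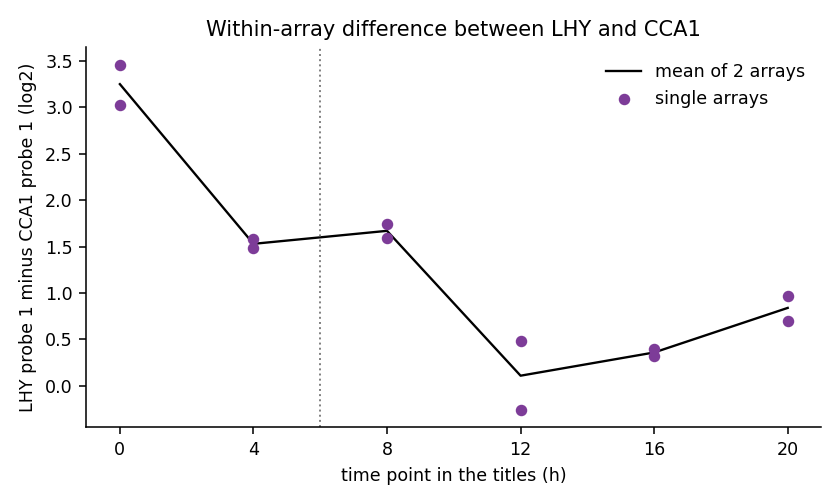
LHY probe 1 minus CCA1 probe 1 within each array (vertical axis, log2) at the 6 time points in hours. Points are single arrays and the line joins the means of 2; the difference is highest at 0 h (3.46 and 3.03) and lowest at 12 h (-0.26 and 0.48), and the dotted line separates the slides.

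CHE changed little beside LHY and CCA1, and in another pattern. CHE probe 1 stood at 3.29 and 3.39 at 0 h, at 3.36 and 3.42 at 4 h, and at 4.01 and 4.08 at 8 h. It stood at 4.03 and 4.39 at 12 h, at 4.41 and 4.09 at 16 h, and at 4.28 and 4.30 at 20 h. The 4 arrays of 0 and 4 h were thus below the 8 later ones, which overlapped with one another. CHE probe 2 ranged from 2.98 to 3.21 on the first 4 arrays and from 3.25 to 4.12 on the later 8, and CHE probe 3 from 2.65 to 2.78 and from 3.11 to 3.47. The widest gap between 2 arrays of a time point among all members was that of CHE probe 2 at 20 h, with 3.25 and 3.83.

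The range of the CHE means was 0.95 ± 0.19 for CHE probe 1 (20 h over 0 h, 1.93-fold), 0.90 ± 0.23 for CHE probe 2 and 0.76 ± 0.15 for CHE probe 3 (both 12 h over 4 h). A wider range was found in 74.2 to 85.2% of the tested probes. In the F test, CHE probes 1 and 3 passed (adjusted p 0.021 and 0.030, limma) and CHE probe 2 did not (adjusted p = 0.065). The call on CHE probe 1 was lost when any of the arrays of 0, 4 or 20 h was left out (adjusted p 0.051 to 0.075), and when the percentile for the scaling was taken over all probes (adjusted p = 0.24). In the cosine test the adjusted p were 0.063, 0.077 and 0.072, with fitted peaks at 14.6, 13.0 and 13.3 h. Of the 15 pairs of time points, the CHE probes passed only in pairs that set 0 or 4 h against 12, 16 or 20 h. They passed in 9 of the 18 cases these pairs give, where 5.0 to 18.1% of tested probes passed. Each of these pairs also sets slide 1 against slide 2. Under normexp and quantile normalization all 3 CHE probes also passed from 4 to 8 h, the step at which the slide changes (0.88, 1.1 and 0.88, limma, adjusted p 0.0024, 0.0012 and 0.00013).

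The difference in CHE coincided with the 2 slides. All 3 CHE probes were higher on every slide 2 array than on every slide 1 array, a separation seen in this direction in 1.67% of tested probes. The slide means differed by 0.84, 0.71 and 0.58, while the median difference over all tested probes was -0.08 and 90% of them lay between -1.05 and 0.80. Within slide 2 none of the CHE probes passed the F test (limma, adjusted p 0.80, 0.61 and 0.59), with ranges of 0.24, 0.40 and 0.31, nor did any pass between 0 and 4 h within slide 1 (adjusted p 0.89, 0.73 and 0.79). With the slide as a block the cosine gave adjusted p of 0.78, 0.59 and 0.61. Those values are scaled to the 75th percentile as above. Over all 7 scalings, CHE passed the F test within slide 2 in 1 of 21 cases, CHE probe 3 under normexp and quantile normalization (adjusted p = 0.016), while LHY and CCA1 passed in 21 of 21 each. In the fit of all 12 arrays, the step from 16 to 20 h, which lies within slide 2, passed for CHE probes 2 and 3 with spike-in scaling (-0.84 and -0.74, adjusted p 0.031 and 0.025) and under normexp (-0.57 and -0.41, adjusted p 0.014 and 0.0047). It did not pass for any CHE probe under the other 5 scalings. For the difference of CHE between 0 or 4 h and the later samples, time of day and slide cannot be told apart.

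The scaling also changed which time point was highest for CHE. The 8 spike-in control probes, which detect control RNA added to the samples, had scaled levels of 2.72 to 3.14 in means over the first 5 time points and of 3.70 at 20 h. Scaled to these controls instead, all 3 CHE probes were highest at 12 h, 0.92, 0.84 and 0.73 above 0 h, and passed the F test (limma, adjusted p 0.045, 0.029 and 0.023). At 20 h CHE probe 1 was then 0.12 above its 0 h level, and CHE probes 2 and 3 were 0.43 and 0.45 below theirs. LHY and CCA1 kept their shape under this scaling, with 4 h highest and 20 h lowest on all 6 probes. Over the 7 scalings the F test passed in 21 of 21 cases for LHY, in 21 of 21 for CCA1 and in 12 of 21 for CHE.

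**Figure D4:**
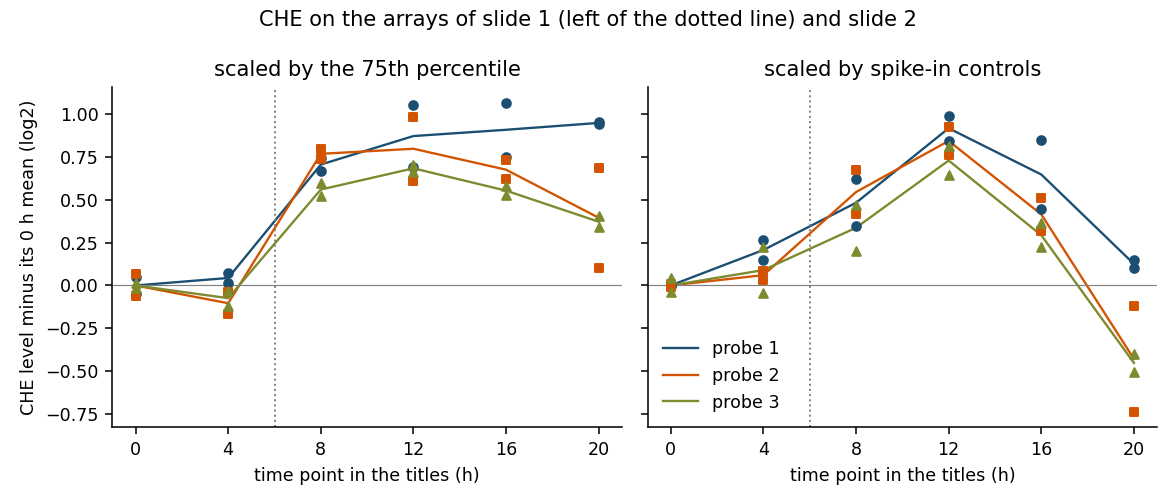
Level of each CHE probe minus its own 0 h mean (vertical axis, log2) at the 6 time points in hours, scaled by the 75th percentile (left panel) and by the spike-in controls (right panel). Points are arrays, lines join means of 2 arrays, and the dotted line separates slide 1 from slide 2; at 20 h CHE probe 1 is 0.95 above 0 h in the left panel and 0.12 above it in the right.

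Measured against the 2 MYB genes within each array, CHE took a different course. CHE probe 1 minus CCA1 probe 1 fell from 2.55 and 2.44 at 0 h to -3.17 and -3.01 at 4 h and reached a mean of 5.02 at 20 h. Its range of 8.11 gave an adjusted p of 0.00029 in the exact permutation test, as did the range of 8.80 for CHE minus LHY. The unadjusted p of the first was 9.6e-05, the smallest that the 10395 groupings can give. Nearly all of these ranges is the change of CCA1 and LHY, since CHE itself spanned 0.95.

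The 3 probes of a gene were compared in the same way, to ask whether their courses differed. Probes of different transcripts with a shared course would also not differ, so the comparison cannot show that a single transcript was read. None of the 9 pairs of probes of one gene differed in course after adjustment (exact permutation test, adjusted p 0.21 to 0.98). The differences ranged over 0.15 to 0.28 for CCA1, 0.28 to 0.41 for LHY and 0.24 to 0.61 for CHE. CHE probe 1 departed the most from its companions, being 0.20 above CHE probe 2 at 0 h and 0.75 above it at 20 h (exact permutation test, unadjusted p = 0.049). The call on this pair depended on single arrays: without the second 20 h array its adjusted p was 0.015. Thus only CHE probe 1 had its highest mean at 20 h, while CHE probes 2 and 3 were highest at 12 h.

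Of 22 clock genes listed for comparison, 5 besides the members were on the array, all of them pseudo-response regulators. The list was drawn up with earlier results of these data known. All 5 passed the F test and 4 passed the cosine test, where 21.5% and 6.53% of tested probes did. Their median range was 5.51, beside 1.37 for all tested probes. PRR9 and PRR7, both repressors of CCA1 and LHY, rose from their lowest mean at 0 h to their highest at 12 h, over ranges of 6.90 ± 0.16 and 6.76 ± 0.28. PRR5, PRR3 and TOC1 had their lowest mean at 8 h and peaked at 16 h, over ranges of 5.25 ± 0.19, 5.51 ± 0.24 and 3.47 ± 0.16. Some of these extremes were not separated from another time point. PRR9 did not pass between 0 and 20 h (adjusted p = 0.077, limma), PRR7 between 12 and 16 h (0.16) or TOC1 between 16 and 20 h (0.076).

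From 8 to 12 h, the step in which all LHY and CCA1 probes fell, 5 of these 5 genes rose, where 6.0% of tested probes changed. PRR5 rose most, from -0.09 to 3.77 (14.5-fold; adjusted p = 4.4e-05, limma), and TOC1 least, from 2.30 to 3.07 (1.71-fold; adjusted p = 0.030). From 0 to 4 h, when LHY and CCA1 rose, 2 of the 5 rose and none fell past the threshold, where 1.69% of tested probes changed. From 16 to 20 h, 4 of the 5 fell and none rose, where 15.3% of tested probes changed. At 8 h, where LHY and CCA1 had their highest mean, not separated from that of 4 h, PRR5, PRR3 and TOC1 had their lowest.

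**Figure D5:**
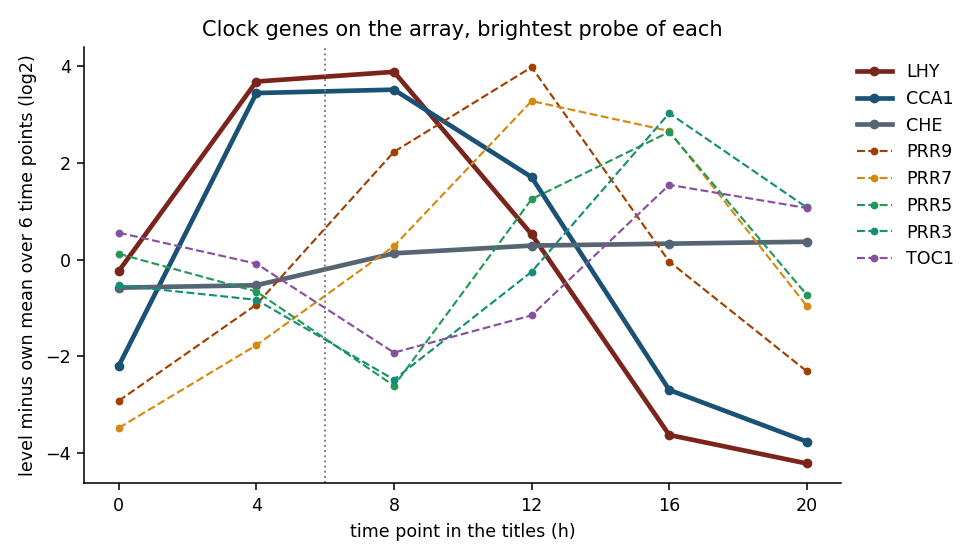
Mean level minus the gene's own mean over the 6 time points (vertical axis, log2) for the brightest probe of each clock gene on the array, against time in hours. Solid lines are LHY, CCA1 and CHE, dashed lines the pseudo-response regulators; PRR9 and PRR7 are highest at 12 h and PRR5, PRR3 and TOC1 at 16 h, and the dotted line separates the slides.

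The transcripts most like each gene were ranked by Pearson's r of scaled log2 levels over the 12 arrays, using the brightest probe of each of 3230 transcripts. These arrays share their scaling and the split into slides, so r is given as a description. For LHY the named transcripts with the highest r were STRS2 (0.985), a DEAD-box RNA helicase gene, the long non-coding RNA AT5G59732 (0.961) and CCA1 (0.942), followed by the non-coding RNAs AT4G17098 (0.923) and AT2G41312 (0.913). Their ranges were far narrower than that of LHY, with 0.94 for STRS2, 1.45 for AT5G59732 and 3.61 for AT4G17098. For CCA1 they were HFR1 (0.967), a bHLH regulator of light responses with a range of 1.99, then LHY (0.942), AT2G43375 (0.933), STRS2 (0.915) and AT2G41312 (0.913). The r of HFR1 with CCA1 and of AT4G17098 with LHY held in all 6 alternatives run. Those of STRS2 with CCA1 and of AT2G41312 with either gene moved in 2, and that of AT2G43375 with CCA1 in 4. Those of STRS2 and AT5G59732 with LHY moved in 1. For STRS2 with LHY, r was 0.813 when the percentile was taken over all probes. The most opposite course was that of AT4G40065 for LHY (r = -0.965) and of AT2G36307 for CCA1 (r = -0.944), the second being a transcript with a range of 0.88. Both depended on the scaling, with r of -0.314 and -0.318 when the percentile was taken over all probes and of -0.289 and -0.404 with spike-in scaling. Under the same 2 scalings the r of CCA1 with LHY was 0.948 and 0.950. Only 8 transcripts (0.248%) had r above 0.9 with LHY and 8 (0.248%) with CCA1.

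For CHE only 1 transcript (0.031%) had r above 0.9, an unnamed one with the code AT5TU002520 (0.909), well above background on slide 2 arrays only. The named ones were the long non-coding RNA AT2G42365 (0.891), PIF4 (0.858), AT1G77138 (0.846), AT2G01008 (0.827) and AT3G41761 (0.820). The lowest were AT3G12502 (-0.869), HY5 (-0.839), a bZIP regulator of light responses, and the microRNA precursor MIR869 (-0.804), which was well above background on the 2 arrays of 4 h only. AT3G12502 and MIR869 did not pass the F test (limma, adjusted p 0.087 and 0.17). The r of MIR869 rests mostly on arrays where it was near background, so it shows no opposite course. These values for CHE moved with the scaling, and that of HY5 turned to 0.271 when the percentile was taken over all probes.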

How the data were processed

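Per the file headers, the authors scanned and quantified the arrays with Agilent Feature Extraction 10.5.1.1. The deposited scanner files give linear intensity per spot, with marks for background, saturation and outliers. The deposited series table holds log2 values whose exact normalization no source used here gives. Its column medians were all 1.37 and its columns had r of at least 0.995 with the scanner values, with slopes from 0.956 to 1.02 and 1.28 for the second dark 16 h array.

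To obtain levels, the processed signals were log2-transformed and the 75th percentile of each array was subtracted, computed over the 2876 probes that no array placed near background. A probe was tested if both arrays of some time point had it well above background (6214 of 15013). Each was tested singly with lmFit and eBayes of limma 3.58.1 (R 4.3.3, 6 residual degrees of freedom). Errors are standard errors of a difference unless given as SD. Differences between 2 probes within an array were tested in Python 3.11.15 by an exact permutation test, one-sided on the F statistic, which takes changes in either direction, over all 10395 groupings of the 12 arrays into 6 pairs. The Benjamini-Hochberg adjustment, with 0.05 as threshold, was made over all tested probes or over the comparisons of one kind. The alternative background correction (normexp, offset 50) used the median spot signal, the one used here in place of a mean signal.

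The named genes are all probes of the members, all listed clock and output genes on the array, and, for each member, the 5 named transcripts with the highest and the 3 with the lowest r and the TU code with the highest r. The members, lists and tests were chosen with earlier results of these data known. No coordinates are given, because the build named in the array headers is older than that of the gene table. Replicate numbers did not pair the samples: the correlation of replicate differences between time points ran from -0.056 to 0.178 and was over 0.1 in 5 of 15 pairs. The scripts were tested on simulated data.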

Additional observations from a re-analysis of the deposited data

How the results depend on the processing

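For the F test, the cosine and the pairs of time points, 33, 23 and 29 alternatives were run. Under all of them the share of member probes passing stayed within 1.5 times its reported value. A count of 6 of 9 in the F test or the cosine can come from LHY and CCA1 alone, so this bound does not cover the calls on CHE. The ranges and peak times of LHY and CCA1 kept direction and call under all 32 and 26 alternatives run for them. The F test count was 6 to 9 of 9, or 3 of 3 with 1 value per transcript. The pair count was 63 to 109 of 135 over other scalings, 61 of 90 with both dark 16 h arrays left out and 31 of 54 within slide 2 (27 to 38 there under other scalings). The course of LHY minus CCA1 passed under all 19 alternatives, with ranges of 2.88 to 3.51 when single arrays were left out. No pair of probes of one gene differed in course as reported, but 1 did under normexp with quantile normalization (CCA1 probes 2 and 3, adjusted p = 0.032, exact permutation test). Also 1 did with both dark 16 h arrays left out, 1 with a replicate block, and 0 to 1 when single arrays were left out, each time CHE probes 1 and 2. With the replicate block, 8 probes passed the F test, 6 the cosine and 89 the pairs. The CHE range, taken on CHE probe 1 as 20 h over 0 h, lost its call in 9 of 25 alternatives. Among them were scaling by the median (adjusted p = 0.059, limma) and no filter on dim probes (0.16). With spike-in scaling the 20 h mean was only 0.12 above that of 0 h. CHE probe 1 was then highest at 12 h, 0.92 above 0 h, and kept its call (F test, limma, adjusted p = 0.045). Spike-in scaling was chosen after seeing the data, as were slide 2 alone for the courses and under other scalings, and all 9 LHY and CCA1 probe combinations. The CHE cosine passed in 4 of 26, with array weights (adjusted p = 0.016), a variance trend (0.016), normexp (0.030) or without the second 16 h array (0.048). The r of HY5 with CHE turned to 0.271 with the percentile taken over all probes. The causes were not tested. Array weights were not run for the permutation tests. The number of arrays, 2 per time point, limits the precision.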

Other observations

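Of 16 listed clock output genes, 6 were on the array. All 6 passed both the F test and the cosine test (limma), where 21.5% and 6.53% of tested probes did. Their median range was 4.60, beside 1.37 for all tested probes. Their probes were well above background on all 12 arrays. The cold-regulated genes COR15A and COR15B, which encode chloroplast proteins, and the dehydrin gene COR47 were lowest at 8 h and highest at 16 h. Their ranges were 8.04 ± 0.43, 7.68 ± 0.17 and 2.02 ± 0.24. LHY and CCA1 had their highest mean at 8 h, not separated from that of 4 h. COR47 did not pass between 4 and 8 h (-0.32, adjusted p = 0.59, limma), between 0 and 16 h (0.42) or between 16 and 20 h (0.19). The call on COR47 was lost when the percentile was taken over all probes (adjusted p = 0.12, range 1.14) and in 3 scalings of slide 2 alone (adjusted p 0.052 to 0.29). FLORE, a non-coding antisense transcript of the CDF5 locus, was lowest at 8 h and highest at 20 h (4.81 ± 0.16). Its 20 h mean was not separated from that of 16 h (adjusted p = 0.22, limma) or of 0 h (adjusted p = 0.092). The growth regulators PIF4 and PIF5 were lowest at 0 h and highest at 16 and 12 h, with ranges of 4.38 ± 0.20 and 2.43 ± 0.20. These extremes were shared with other time points. PIF4 did not pass between 12 and 16 h (adjusted p = 0.92, limma) or between 0 and 4 h (0.24). PIF5 did not pass between 8 and 12 h (adjusted p = 0.86, limma) or between 0 and 20 h (0.93).

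The transcript AT5TU002520, whose course was the most like that of CHE (r = 0.909), was not well above background on the 4 arrays of 0 and 4 h. Its 16 h mean was at least 124-fold above that of 4 h, taking for the dim arrays the higher of its own signal and the lowest signal well above background. The 4 dim arrays are those of slide 1, so for this difference time of day and slide cannot be told apart. The transcripts AT4TU026280 (r = 0.92 with LHY) and AT4TU026320 (r = 0.948 with CCA1) both had their highest mean at 8 h and their lowest at 20 h, over ranges of 2.94 and 3.12.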
